A study of Homo sapiens with 4 samples.

Results

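The genes described here are 10 members of the BCL2 family and of the mitochondrial route to cell death. They were taken by gene symbol from the 25693 human genes of a single-cell count table, and all 10 were found. The cells were NGP, an established human neuroblastoma line with amplified MYCN. They were synchronised by serum starvation and then received for 24 h either Nutlin-3, which keeps MDM2 from binding p53, or the solvent ethanol, so serum starvation was common to both groups. Each treatment had 2 libraries, which differed in the dilution of the added ERCC spike-in RNA (1000-fold or 10000-fold). RNA was read at the 3′ end on the ddSeq droplet device. The column names give the treatment and not the library, so the 250 columns of each treatment form 1 pool without replicates. No difference below has a replicate check or a test, and every interval covers counting error only.

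Cells die by the mitochondrial route when the outer mitochondrial membrane is opened. The effector proteins BAX and BAK1 form the opening, the pro-survival proteins BCL2, BCL2L1 (BCL-XL) and MCL1 hold them back, and BH3-only proteins such as BBC3 (PUMA), PMAIP1 (NOXA) and BID set the effectors free. Released cytochrome c then assembles with APAF1 into the apoptosome, which activates caspase-9. The genes of BBC3, PMAIP1, BAX and AEN, a nuclease that acts in apoptosis, are known targets of p53, which stabilised p53 can switch on.

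The pools held 1342134 human counts in ethanol and 1301232 in Nutlin-3. Of the nonzero values, 92.5% and 93.0% were equal to 1. In each treatment 113 columns had more than 4000 counts (medians of 10763 in ethanol and 10647 in Nutlin-3) and are called large, and the other 137 are called small. Of the 250 column names per treatment, 219 occur in both. How cell and molecular tags were read is not given in the sources used here, and whether a column is 1 cell and a count 1 molecule was not tested, so shares below are of columns and not of cells. All 10 adrenergic neuroblastoma markers were detected, with a sum of 2992 counts in ethanol against 2788 in Nutlin-3. MYCN alone had 1140 and 877, and the other 9 together 1852 and 1911. For the blood list only CD68 matched a row, with 0 and 4 counts. The 5 matched genes of the mesenchymal state had 163 and 146 counts, and the 3 matched fibroblast genes 74 and 90. Within these sums single genes differed in opposite directions, CD44 with 31 and 58 counts and COL1A1 with 29 and 47 against FN1 with 37 and 19, and their part in the results was not tested. The p53 targets CDKN1A and MDM2 had 70 and 315 counts in ethanol against 188 and 504 in Nutlin-3.

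Promoter sequences are shown for the BH3-only genes BBC3 and PMAIP1, p53 targets whose log2 ratios were 2.65 and -0.09. Those of BAK1 and AEN are shown because they held a full p53 response element. PMAIP1 was already in 97.3% of large ethanol columns, and whether such counts can show a higher level was not tested. A different response is therefore not read from the 2 ratios. RefSeq (GRCh38.p14) gave 14 promoters for 9 of the members, all but MCL1, each with the 250 bases before and the 50 after a start site. The p53 response element was searched on the gene's strand as a pair of 10-base half-sites with 0 to 13 bases between them and at most 2 mismatches. No mismatch was allowed at the core C and G of any half-site. The element and its half-site are palindromic, so the other strand gives the same matches. Capitals mark a single half-site with at most 1 mismatch in BBC3 and PMAIP1, and both half-sites of the full element in BAK1 and AEN.
BBC3, chr19:47232767-47232917, minus strand, bases -250 to -100: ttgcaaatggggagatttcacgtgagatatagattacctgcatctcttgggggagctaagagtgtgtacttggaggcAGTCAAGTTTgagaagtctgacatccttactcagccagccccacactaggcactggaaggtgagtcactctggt
PMAIP1, chr18:59899746-59899896, plus strand, bases -250 to -100: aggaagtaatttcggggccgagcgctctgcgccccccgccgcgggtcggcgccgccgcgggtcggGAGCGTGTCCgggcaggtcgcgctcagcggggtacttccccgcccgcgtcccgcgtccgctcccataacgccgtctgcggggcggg
BAK1, chr6:33580327-33580426, minus strand, bases -150 to -51: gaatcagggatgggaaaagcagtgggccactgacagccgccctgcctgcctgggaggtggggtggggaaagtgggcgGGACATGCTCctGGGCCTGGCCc
AEN, chr15:88621306-88621325, plus strand: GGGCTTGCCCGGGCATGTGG

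The full element was present in 2 of the 14 member promoters (14.3%), those of BAK1 and AEN, each with 2 mismatches, and in 1030 of all 35116 promoters (2.93%). In BAK1 the second half-site also matched 1 base further on, with a spacer of 3 bases. A single half-site with at most 1 mismatch was common, in 45.1% of all promoters and 7 of the 14. A match describes the letters in this window and is not a binding site, and elements farther from the start were not looked for.

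In the summed counts, BBC3 stood apart from the other 9 genes. Its level in Nutlin-3 was 6.28 times that in ethanol. BAK1 and BCL2L1 were also more than 1.5-fold higher, at few counts, while BAX and AEN were higher by less than that. The log2 ratios of PMAIP1, BID, BCL2, MCL1 and APAF1 lay between -0.17 and 0.05. For PMAIP1, BID, BCL2 and MCL1, a value near 0 is not read as an unchanged level. At least 88.5% of large ethanol columns already held each of them, mostly with 1 count. Of the 10 members, 3 were at least 1.5-fold higher, where 7.81% of the 14830 genes past the filter on low counts were, and 0 were at least 1.5-fold lower, against 5.85% of those genes. The members' median log2 ratio was 0.20, with 7 higher and 3 lower, beside -0.0011 over all genes tested, of which 49.7% were higher. The 7 higher include MCL1, with 175 counts in both pools, and BCL2, with 114 in ethanol and 113 in Nutlin-3. The signs of MCL1 and BCL2 came from the scaling for depth. With the ERCC counts as library size the median of all genes moved to -0.47 and that of the members to -0.27, and AEN, BAX, BCL2 and MCL1 changed sign. BCL2 also did so, to -0.01, in the columns whose name occurs in both treatments, and BID, to 0.12, in the small columns alone. The libraries pooled here differed in ERCC dilution, and columns cannot be tied to them. Whether ERCC counts can serve as a scale between the pools was therefore not tested.

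**Figure D1:**
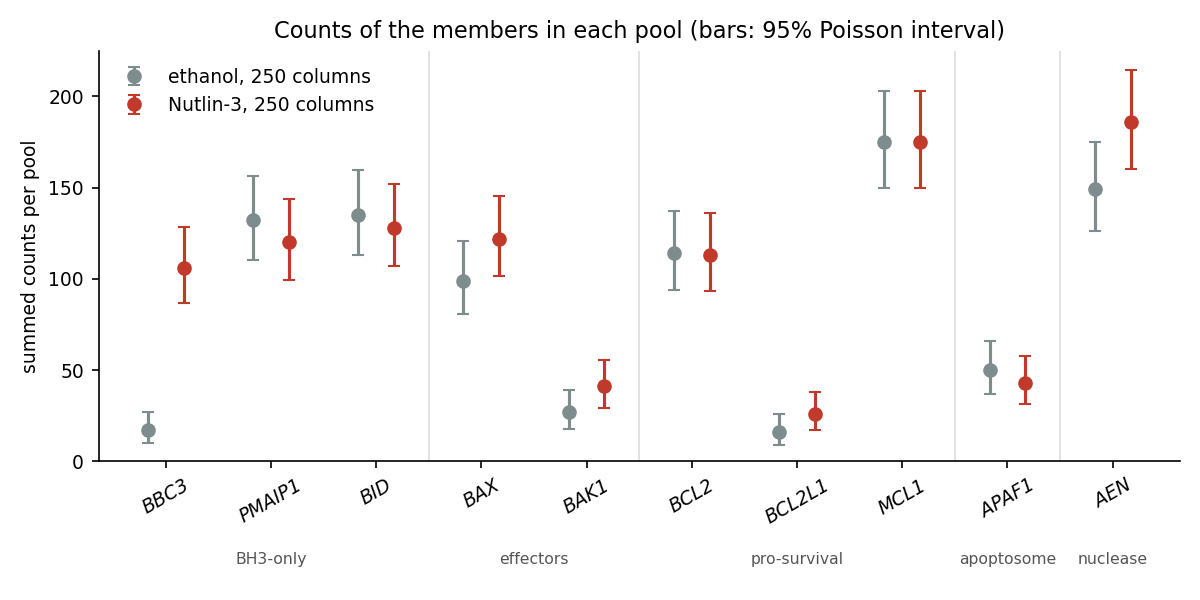
Summed counts of each member (vertical axis) in the ethanol and Nutlin-3 pools of 250 columns each, grouped by role, with 95% Poisson intervals as bars. The intervals of BBC3 lie apart (17 against 106 counts), and those of the other 9 genes overlap.

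The share of genes past 1.5-fold depended on level, so each member is also read beside genes of similar counts. Among genes with 20 to 49 counts in both pools together, 22.7% were at least 1.5-fold higher in Nutlin-3. This share was 13.8% for 50 to 99 counts, 3.1% for 100 to 199 counts, 0.0643% for 200 to 299 counts and 0.199% for 300 or more. The range of folds narrowed in the same way with how often a gene was seen. Of the 4523 genes found in at least 90% of large columns, averaged over treatments, the central 95% lay between -0.28 and 0.25 on the log2 scale, against -0.90 and 1.08 for the 3653 genes found in 20% to 60% of them.

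**Figure D2:**
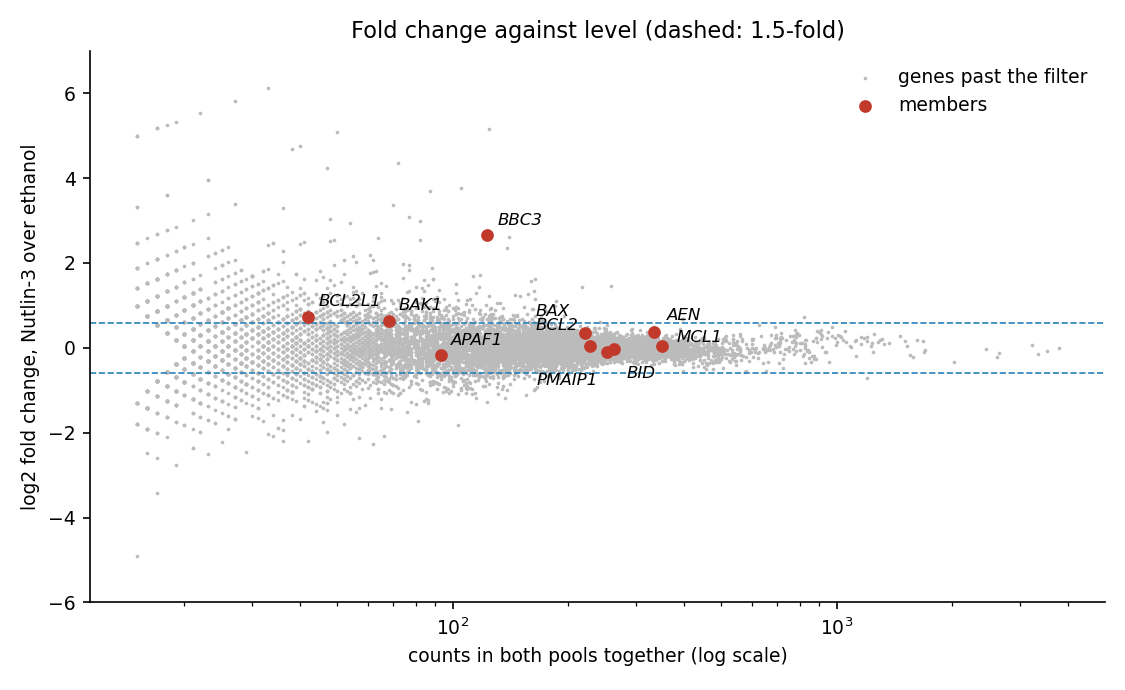
Log2 ratio of Nutlin-3 over ethanol against the counts of both pools together (log axis) for the 14830 genes past the filter (grey) and the 10 members (red), with 0.5 counts added to each sum; dashed lines mark 1.5-fold. The grey points narrow towards high counts, BBC3 lies above nearly all genes near its level, and BCL2L1 and BAK1 lie just past the line where many genes do.

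Among the BH3-only genes, BBC3 (ENSG00000105327, chromosome 19, 47220822 to 47232766, GRCh38), whose protein binds every pro-survival member, had 17 counts in ethanol (95% Poisson interval 9.90 to 27.2) and 106 after Nutlin-3 (86.8 to 128). The pools did not overlap within their counting error. Its log2 ratio was 2.65 (95% counting interval 1.94 to 3.52). It was the third highest of the 3844 genes with 100 to 199 counts in both pools, and rank 40 of all 14830. Its level of 12.7 CPM (counts after scaling both pools to one depth) in ethanol and 81.5 in Nutlin-3 moved it from the ninth to the seventh place among the members.

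The difference in BBC3 lay in how many columns held a count. Of the nonzero values of all genes, 92.5% in ethanol and 93.0% in Nutlin-3 were 1, so this is not read as a trait of BBC3. In ethanol 17 of the 113 large columns had 1 count and 96 had 0, a share of 15.0% (exact binomial interval 9.01 to 23.0). In Nutlin-3 99 large columns had 1 count, 1 had 2 and 13 had 0, a share of 88.5% (81.1 to 93.7). Few large Nutlin-3 columns were thus left at 0, and whether this holds the ratio of BBC3 down was not tested. Large columns thinned to 5000 counts gave 7.08% (3.11 to 13.5) and 48.7% (39.2 to 58.3), with no column left out. The small columns held 0 counts in ethanol and 5 in Nutlin-3. These were shares of 0% (0 to 2.66) and 3.65% (1.20 to 8.31) of the 137 columns, and the intervals overlapped. With the 0 replaced by a floor of 3 counts (2.19% of the columns) the ratio would be 1.81, which is not a limit from counting error. At 700 counts per column BBC3 was seen in 1 of 194 ethanol columns (0.515%, interval 0.0130 to 2.84) and in 8 of 187 Nutlin-3 columns (4.28%, 1.86 to 8.26), and these intervals overlapped. That depth left out 56 ethanol and 63 Nutlin-3 columns. The line holds no cell type that lacks these genes, so the share that free RNA gives was not measured.

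PMAIP1 (ENSG00000141682, chromosome 18, 59899948 to 59904306), whose protein binds MCL1, had 132 counts in ethanol (110 to 157) and 120 after Nutlin-3 (99.5 to 143). The pools overlapped, and the log2 ratio was -0.09 (-0.46 to 0.28). PMAIP1 was already present in 97.3% of large ethanol columns, against 93.8% in Nutlin-3, nearly always with 1 count. Of the 4523 genes seen that often, 3 (0.0663%) were at least 1.5-fold higher. The highest log2 ratio was 0.72, that of MDM2, which was in all 113 large ethanol columns. Whether counts such as those of PMAIP1 can show a higher level was not tested, so an unchanged level is not read from them. When large columns were thinned to 5000 counts PMAIP1 was seen in 50 of 113 in each treatment. Thinning draws from the same counts, so an equal level is not read from it. In the small columns PMAIP1 had 16 counts in ethanol against 10 in Nutlin-3, a log2 ratio of -0.53. It was seen in 11.7% (6.82 to 18.3) against 6.57% (3.05 to 12.1) of them, and these intervals overlapped.

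BID (ENSG00000015475, chromosome 22, 17734138 to 17774770), the BH3-only protein that death receptors activate through caspase-8, had 135 counts in ethanol (113 to 160) and 128 after Nutlin-3 (107 to 152). Its log2 ratio was -0.03 (-0.39 to 0.33). It was seen in 111 large ethanol columns and 105 large Nutlin-3 columns. The small columns held 16 counts in both treatments.

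Of the effectors, BAX (ENSG00000087088, chromosome 19, 48954815 to 48961798) had 99 counts in ethanol (80.5 to 121) and 122 after Nutlin-3 (101 to 146). These intervals overlapped, and that of the log2 ratio of 0.35 (-0.05 to 0.74) included 0. This value was nevertheless rank 44 of the 4663 genes with 200 to 299 counts, a level at which few genes differed. BAX had 0 counts in 21 large ethanol columns and in 5 large Nutlin-3 columns, so its share was 81.4% (73.0 to 88.1) against 95.6% (89.98 to 98.5). At 5000 counts the shares were 45.1% (35.8 to 54.8) and 50.4% (40.9 to 59.98) and overlapped. Thinning leaves fewer counts, so the overlap is not read as an equal level.

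BAK1 (ENSG00000030110, chromosome 6, 33572547 to 33580293), the effector that sits in the mitochondrial membrane, was less abundant. It had 27 counts in ethanol (17.8 to 39.3) and 41 after Nutlin-3 (29.4 to 55.6), a log2 ratio of 0.64 (-0.09 to 1.41). The intervals overlapped, and 13.8% of genes at its level were at least 1.5-fold higher. No BAK1 count exceeded 1 in any column, and 26 large ethanol and 40 large Nutlin-3 columns had it. GGNBP1, a pseudogene on the other strand that spans BAK1, had 1 count in ethanol and 0 in Nutlin-3.

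The pro-survival genes gave no interval that left out 0. BCL2 (ENSG00000171791, chromosome 18, 63123346 to 63320128) had 114 counts in ethanol (94.04 to 137) and 113 after Nutlin-3 (93.1 to 136), a log2 ratio of 0.03 (-0.35 to 0.42). BCL2 was in 88.5% of large ethanol and 90.3% of large Nutlin-3 columns, mostly with 1 count, so an unchanged level is not read from this. MCL1 (ENSG00000143384, chromosome 1, 150574551 to 150579738), whose protein turns over fast, had 175 counts in both pools (150 to 203 each) and a log2 ratio of 0.05 (-0.26 to 0.36). MCL1 was in all 113 large columns of each treatment and in 34 small columns of each.

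BCL2L1 (ENSG00000171552, chromosome 20, 31664452 to 31723989) was the member with the fewest counts, 16 in ethanol (9.15 to 25.98) and 26 after Nutlin-3 (16.98 to 38.1). Its log2 ratio of 0.73 had a counting interval from -0.21 to 1.74. At its level 22.7% of genes were at least 1.5-fold higher. All of its counts lay in large columns, 1 per column, and the small columns held 0 in both treatments.

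APAF1 (ENSG00000120868, chromosome 12, 98645141 to 98735433), the scaffold of the apoptosome, had 50 counts in ethanol (37.1 to 65.9) and 43 after Nutlin-3 (31.1 to 57.9). Its log2 ratio was -0.17 (-0.79 to 0.45). The end of ANKS1B, which lies on the other strand, overlaps APAF1. ANKS1B had 25 counts in ethanol against 11 in Nutlin-3, and whether counting used the strand is not given in the sources used here, so the APAF1 value is uncertain.

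AEN (ENSG00000181026, chromosome 15, 88621296 to 88632282) had 149 counts in ethanol (126 to 175) and 186 after Nutlin-3 (160 to 215). The Poisson intervals of the pools overlapped, while the interval of the log2 ratio of 0.37 (0.05 to 0.69) left out 0. This was rank 17 of the 1504 genes with 300 or more counts. AEN was in 111 large ethanol and 112 large Nutlin-3 columns, and the difference there was in columns with 2 counts, 10 against 27. In the small columns it had 26 and 43 counts, a log2 ratio of 0.83, and was seen in 18.2% (12.2 to 25.7) against 29.9% (22.4 to 38.3) of them. With ERCC counts as library size AEN had a log2 ratio of -0.10.

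**Figure D3:**
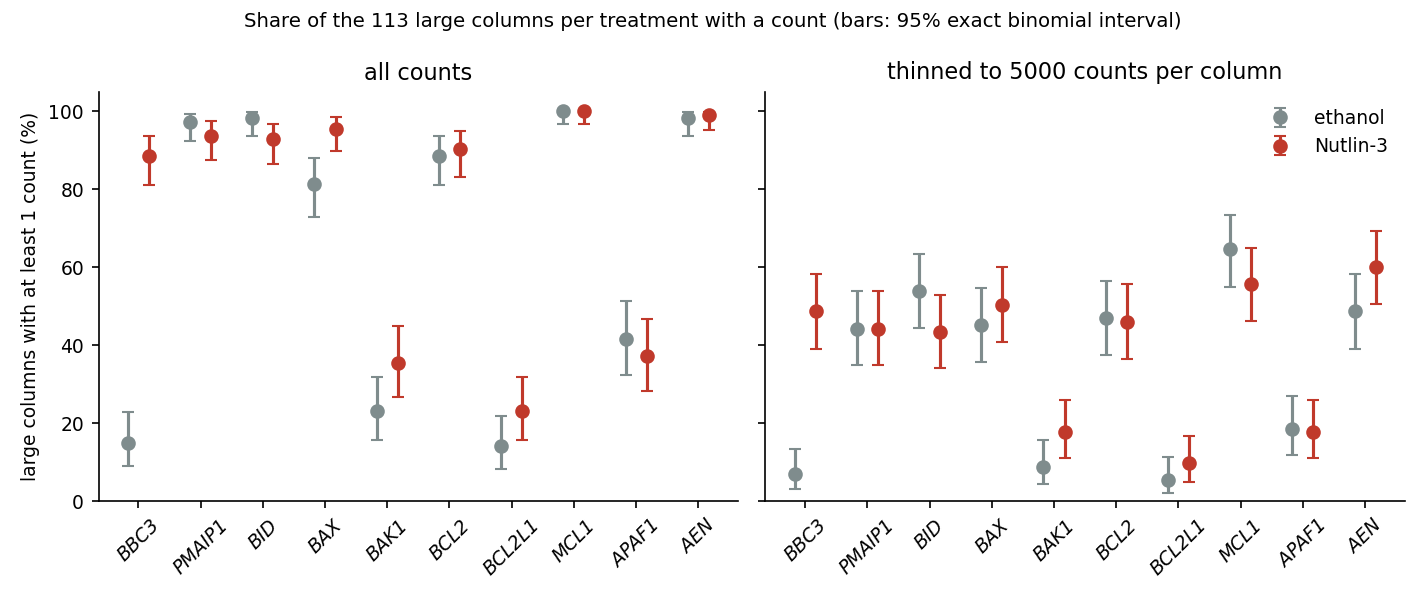
Percentage of the 113 large columns of each treatment with at least 1 count of each member, with all counts (left) and after thinning each column to 5000 counts (right); bars are 95% exact binomial intervals. BBC3 differs in both panels, BAX lies apart only with all counts, and MCL1, AEN, PMAIP1 and BID are near 100% on the left.

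Levels were ordered by counts of 3′ ends, which were not divided by length since the kit reads each transcript at its end. In ethanol the order was MCL1, AEN, BID, PMAIP1, BCL2, BAX, APAF1, BAK1, BBC3 and BCL2L1, from 130 to 11.9 CPM. Neighbours in this order had overlapping Poisson intervals except BAX and APAF1. In Nutlin-3 the order was AEN, MCL1, BID, BAX, PMAIP1, BCL2, BBC3, APAF1, BAK1 and BCL2L1, from 143 to 19.99 CPM, and the gap lay between BBC3 and APAF1. MCL1, AEN, BID, PMAIP1 and BCL2 were each in at least 88.5% of large ethanol columns, mostly with 1 count. Whether such counts can show a higher level was not tested, so distances between these genes are not read as distances in level.

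Summed by role, the 3 BH3-only genes had 284 counts in ethanol against 354 in Nutlin-3, a log2 ratio of 0.36 (0.13 to 0.59). Without BBC3, left out after its values had been seen, PMAIP1 and BID had 267 and 248 counts and a value of -0.06 (-0.32 to 0.19). The effectors had 126 and 163 counts and a value of 0.42 (0.07 to 0.76), and the 3 pro-survival genes 305 and 314 counts and a value of 0.09 (-0.14 to 0.32). There were 1.34 BH3-only and effector counts per pro-survival count in ethanol (1.16 to 1.56) and 1.65 after Nutlin-3 (1.43 to 1.90), and these intervals overlapped. Without BBC3 the ratios were 1.29 (1.11 to 1.501) and 1.31 (1.13 to 1.52). PMAIP1, BID, BCL2 and MCL1, each in at least 88.5% of large ethanol columns, make up much of these sums and ratios. Whether their counts can show a higher level was not tested. The median large column held 7 of the 10 members in ethanol and 8 in Nutlin-3. At least 8 members were present in 24 large ethanol columns (21.2%) and in 69 large Nutlin-3 columns (61.1%), at similar median depths. Without BBC3 the median was 7 of the other 9 members in both treatments, and at least 8 of them were present in 18 (15.9%) against 27 (23.9%) large columns.

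The rest of the mitochondrial pathway was read from a list of 41 genes, of which 38 matched a row and 34 passed the filter. The median log2 ratio of those 34 was 0.02, with 19 higher and 15 lower. At least 1.5-fold higher were 5 of the 34 (7.81% of all genes) and at least 1.5-fold lower were 2 (5.85%). Of those 7 genes, 6 had at most 63 counts in both pools together.

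PIDD1, which builds the complex that activates caspase-2 and is a p53 target, had the most counts among those 7, 57 against 104 from ethanol to Nutlin-3, and a log2 ratio of 0.91 (0.43 to 1.41). CASP9, the caspase that APAF1 activates, had 23 and 40 counts and a value of 0.83 (0.07 to 1.65). At the level of CASP9, 50 to 99 counts in both pools, 13.8% of genes were at least 1.5-fold higher. DFFB, the nuclease that cuts DNA in dying cells, had 14 and 26 counts and a value of 0.92 (-0.05 to 1.99). BOK, a relative of BAX, had 15 and 24 counts, and BCL2L12 had 18 and 28, and both intervals included 0.

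On the lower side, BCL2L15, a further family member, had 35 counts in ethanol against 17 in Nutlin-3, a log2 ratio of -0.97 (-1.92 to -0.12). HRK, a BH3-only gene of neurons, had 11 and 4 counts, with an interval from -3.52 to 0.34.

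The other genes named by their counts were less than 1.5-fold apart. Of all genes with 200 or more counts few passed that fold, so nothing is read from this for genes at that level. BCL2L11 (183 counts in both pools) and CASP6 (86) lay below it, and their intervals included 0. All 9 channel and intermembrane genes had values between -0.11 and 0.11, among them CYCS, the gene of cytochrome c, with 226 and 220 counts, VDAC3 with 173 and 158 and VDAC2 with 170 and 153. Of the BH3-only relatives, BNIP3 had 130 and 118 counts, BNIP3L 120 and 124, and BCL2L11 (BIM) 102 and 81. The pro-survival gene BCL2L2 had 110 and 106 counts, and BCL2L13 had 103 and 102. CASP2, which PIDD1 activates, had 143 and 142 counts, and CASP6 45 and 41.

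Among the caspase inhibitor genes, BIRC5 (survivin), which is also a mitotic gene, had 188 counts in ethanol against 158 in Nutlin-3 and a log2 ratio of -0.20 (-0.52 to 0.11). BIRC6 had 137 and 138 counts, and XIAP 131 and 124. At the end of the cascade PARP1 had 204 and 176 counts and DFFA, which restrains DFFB, 176 and 178. Among other p53-linked genes, TP53I3 had 112 and 125 counts and TP53BP2 131 and 107. PERP and TP53AIP1, both known as p53 targets, had 1 count each over both pools, under the floor of 3 counts.

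**Figure D4:**
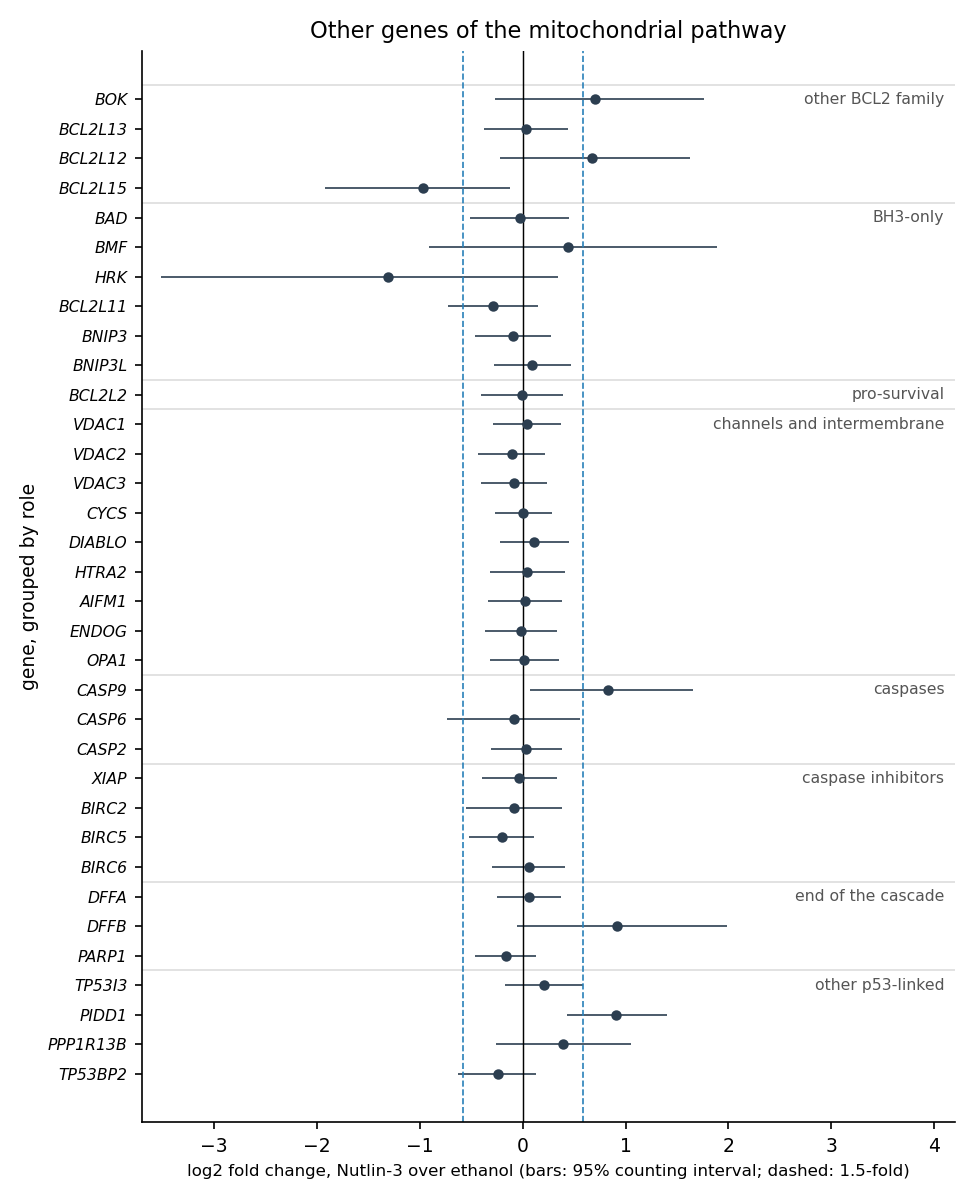
Log2 ratio of Nutlin-3 over ethanol for the 34 other pathway genes past the filter, by role, with 95% counting intervals as bars and 1.5-fold as dashed lines. Most lie near 0, and the intervals of PIDD1 and CASP9 (higher) and BCL2L15 (lower) leave out 0. The share of all genes with such intervals was not counted.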

How the data were processed

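The authors deposited whole-number counts per gene and column, and per the labels' protocols libraries were made with the SureCell WTA 3′ kit on the ddSeq device. Not given in the sources used here are the aligner, how cell and molecular tags were read, the genome build, the annotation and any filter applied to cells. Column names ending in treated were taken as Nutlin-3 and those ending in untreated as ethanol. Genes were named by identifier from GENCODE release 29 (GRCh38), which may differ from the authors' build (25602 of 25693 genes matched). The 62 ERCC rows (2989 counts in ethanol and 4007 in Nutlin-3) were kept out of the sums.

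Sums were taken per treatment over its 250 columns. The edgeR 4.0.16 filter with a minimum of 10 kept 14830 genes, and TMM gave the scaling in R 4.3.3. The log2 ratio (fold change) was computed after 0.5 counts were added to both sums. Its 95% interval is the exact binomial one for the part of a gene's counts that Nutlin-3 holds, and sums have exact Poisson intervals. Such intervals take counts as independent molecules, while 92.5% and 93.0% of the nonzero values were 1. A fold past 1.5 stands in for a call, since 1 pool per treatment allows no test. Scaling was also done with DESeq2 1.42.0. Folds and intervals were also computed on simulated data. These were independent Poisson draws around the pool means, as the intervals assume. They checked the calculation and not whether the intervals suit these counts. Columns were thinned at random to 700 or 5000 counts, and no doublet caller was run, as all cells are of 1 line.

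Every member is named. Of the pathway list, the genes past 1.5-fold and the 3 with the most counts in each role are named, and PERP and TP53AIP1 were added after their values were seen. Some genes of the pathway list as first drawn up are not reported here and were left out of its counts, for a reason unrelated to their values. The members, lists, level limits and alternatives were chosen with earlier results of these data known, and the count bands were set with these data at hand. The search for a BH3 core in the proteins was not done, as no protein sequences were used here. Promoters are from RefSeq (GRCh38.p14).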

Additional observations from a re-analysis of the deposited data

How the results depend on the processing

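No paired analysis was possible because no column could be tied to a library or an ERCC dilution, and leaving out each library and the ERCC dilution as a replicate block were not run for the same reason. Of 105 values of single members under the alternatives, 97 stayed within the counting interval of the first value, 7 left it and 1 changed sign with an interval that had left out 0. The last was AEN, at -0.10 with ERCC counts as library size. Each pool mixed 2 ERCC dilutions in unknown parts, so no change in level is read from that scaling. That scaling takes one constant from every gene (median of all genes -0.47), so the members' median was -0.27, with 1 member past 1.5-fold higher and 1 lower, and the pathway list's median was -0.45, with 0 higher and 6 lower. In small columns alone 5 members and 21 pathway genes reached 10 counts in both pools. There 1 member was past 1.5-fold higher, and the pathway list's median was 0.074, with 2 higher and 1 lower. BBC3 stayed at a log2 ratio between 2.18 and 2.78 under the 10 alternatives in which it had 10 counts. Depth limits the small columns, in which BBC3 in ethanol and BCL2L1 in both treatments had 0 counts. Sums and column counts without BBC3 or MYCN were added after seeing the data.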
